A study of Physcomitrium patens with 8 samples.

Results

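The members are 67 microarray probes, of 59 loci, that read higher in the atg5 line than in wild type (WT) of the moss Physcomitrium patens on abscisic acid (ABA) and after drying, but not in well-watered colonies. They were chosen among 38181 gene probes of 32103 loci by the log2 ratio of atg5 over WT, taken from the scanner's processed signals and centred on each array. A member had a mean ratio of at least 0.7 in ABA and in Dehydration and between -0.5 and 0.3 in Hydration. It was also well above background in both dyes on the 4 ABA and Dehydration arrays. That detection criterion alone was met by 12290 probes. Of these, 601 (4.89%) had both stress ratios at or over 0.7, and the members are 0.545% of the 12290. Among the 601 probes, 374 were at or over 0.7 in Hydration too, 135 lay between 0.3 and 0.7 there, and 25 lay under the lower limit.

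The data come from 8 custom 2-colour arrays, each of which compared the 2 genotypes after the same treatment, with 2 arrays for each of 4 treatments. The atg5 line is a knockout of autophagy related gene 5. Since a single knockout line is labelled (1 line), effects of losing ATG5 and of anything else that sets this line off from WT cannot be told apart. Hydration stands for protonemal colonies grown for 7 days at 25 °C under continuous light, and ABA for such colonies moved for 24 h to medium with 50 µM abscisic acid. Dehydration colonies spent 24 h in a jar with silica gel, and Rehydration colonies were dried and then given fresh medium for 24 h. Whether the dried colonies had first been on abscisic acid is not given in the labels. On array 1 of each treatment atg5 carried Cy5 and WT carried Cy3, and on array 2 the dyes were exchanged.

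As background, autophagy is the route by which a cell encloses its own material in double-membraned vesicles and breaks it down in the vacuole. ATG5 is part of the conjugation machinery that builds these vesicles, and plants without it recycle cell material poorly when starved or stressed. Protonemata are the filamentous first growth stage of a moss. Abscisic acid is the plant hormone of water stress. In this moss it sets off the synthesis of protective proteins and sugars, and colonies pretreated with it survive a drying that otherwise kills them.

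The identifiers on the arrays could not be matched to gene names (0 were found in a reference table of 27567 genes). The members are therefore given by identifier, their functions are not given, and neither the ATG5 transcript nor the tissue label could be checked. Per channel, 19.3 to 30.6% of gene probes were well above background after rehydration and 37.0 to 53.4% in the other treatments. No gene spot was saturated (0 spots). The labels call the arrays of a treatment biological replicates, without saying what was separate, so p-values measure the spread between these arrays only, and 2 arrays per treatment limit their precision. The arrays lie on 2 slides, and slide, replicate number and dye orientation coincide.

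On the arrays that chose them, the members had a median log2 ratio of 0.95 on ABA, 1.06 in Dehydration and 0.03 in Hydration, which is a description and no finding. As fold differences the stress medians were 1.93 on ABA and 2.08 in Dehydration. The ratio ran from 0.71 to 3.1 on ABA and from 0.70 to 2.90 in Dehydration. It was at or over 1 for 31 members on ABA and for 38 in Dehydration. In Hydration the range was -0.49 to 0.29. The samples are whole colonies, in which more cells of a type and more RNA per cell cannot be told apart. On each of the 4 stress arrays taken alone all 67 members lay above 0, and 37 members were at or over 0.7 on all 4.

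The thresholds fell where many probes lie. On ABA the lowest member was at 0.711 and the nearest probe kept out by that threshold alone at 0.685, with 20 members and 19 such probes within 0.1 of the threshold. In Dehydration these were 0.7004 and 0.6992, with 12 members and 12 other probes within 0.1. At the upper Hydration limit the last member was at 0.292 and the next probe at 0.301, with 12 members and 23 other probes within 0.1. At the lower limit they were -0.489 and -0.501, with 5 and 5. With a ratio of at least 1 in place of 0.7 the rule found 26 members.

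**Figure D1:**
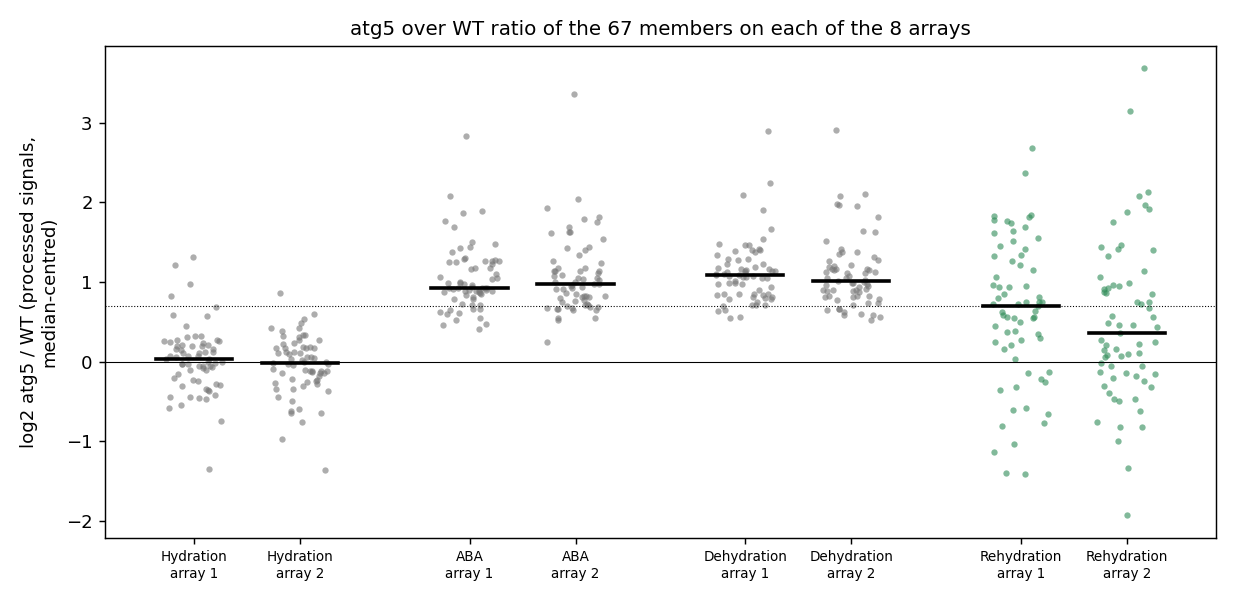
The vertical axis is the log2 ratio of atg5 over WT from the processed signals, centred on each array's median, for the 67 members (points) on each of the 8 arrays, with the median as a bar and the threshold of 0.7 as a dotted line. The grey points chose the members; the green Rehydration points did not, and run from -1.93 to 3.68.

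The member with the largest stress ratio was Pp1s23_153V6.1. On ABA its processed signal was 1127 and 995 in atg5 and 158 and 98.9 in WT, array 1 first. In Dehydration it was 1739.9 and 1497 in atg5 and 232 and 202 in WT. Both atg5 values stood above both WT values in either treatment. On the rule's scale they did so by 7.14-fold and 10.3-fold on the arrays of ABA and 7.47-fold and 7.49-fold on those of Dehydration. On the scale of the test below, after background correction and loess normalization, the mean differences were smaller, 3.13-fold on ABA and 4.16-fold in Dehydration. In Hydration its signal was 51.2 and 79.6 in atg5 and 78.3 and 46.5 in WT. There it was not well above background in any channel, and its ratios of -0.59 and 0.87 on the 2 arrays had opposite signs. Its place inside the Hydration window thus came from the mean of readings near background.

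Pp1s37_150V6.1 came next and was well measured in Hydration. Its processed signal there was 1560.2 and 3974 in atg5 and 1765 and 4596 in WT, with ratios of -0.15 and -0.12. On ABA it was 2852 and 2624.5 in atg5 and 784 and 705 in WT. In Dehydration it was 2566 and 2467 in atg5 and 599 and 590.1 in WT. The genotypes overlapped in Hydration and were apart in both stresses, where WT was under its Hydration signals and atg5 lay between its Hydration signals. A second probe of the same locus is also a member.

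Among members well above background in all 4 Hydration channels, Pp1s326_37V6.1 and Pp1s283_63V6.1 followed in size. Pp1s326_37V6.1 had processed signals of 803 and 730.1 in atg5 and 236 and 221 in WT on ABA. In Dehydration its signals were 849.9 and 915 in atg5 and 291 and 216 in WT. In Hydration they were 719 and 710.5 in atg5 and 677 and 669 in WT. In processed signals atg5 was thus of similar size in the 3 treatments, and WT was lower on ABA and in Dehydration than in Hydration. After normalization between arrays both genotypes moved from their Hydration level. The log2 change was 0.37 in atg5 and -0.60 in WT on ABA, and 0.35 in atg5 and -0.82 in WT in Dehydration.

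Pp1s283_63V6.1 showed a different layout. Its processed signal in Dehydration was 21118 and 19236 in atg5 and 4445 and 5013 in WT. In Hydration it was 1075 and 2219 in atg5 and 1044 and 2416 in WT, so both genotypes were brighter after drying and atg5 the more so. On ABA its arrays disagreed in level, with 16428 and 827 in atg5 and 3878 and 479.9 in WT, and the ratios were 2.08 and 0.82. Both ABA arrays had atg5 above WT, but on array 2 both genotypes were dimmer than on either Hydration array.

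**Figure D2:**
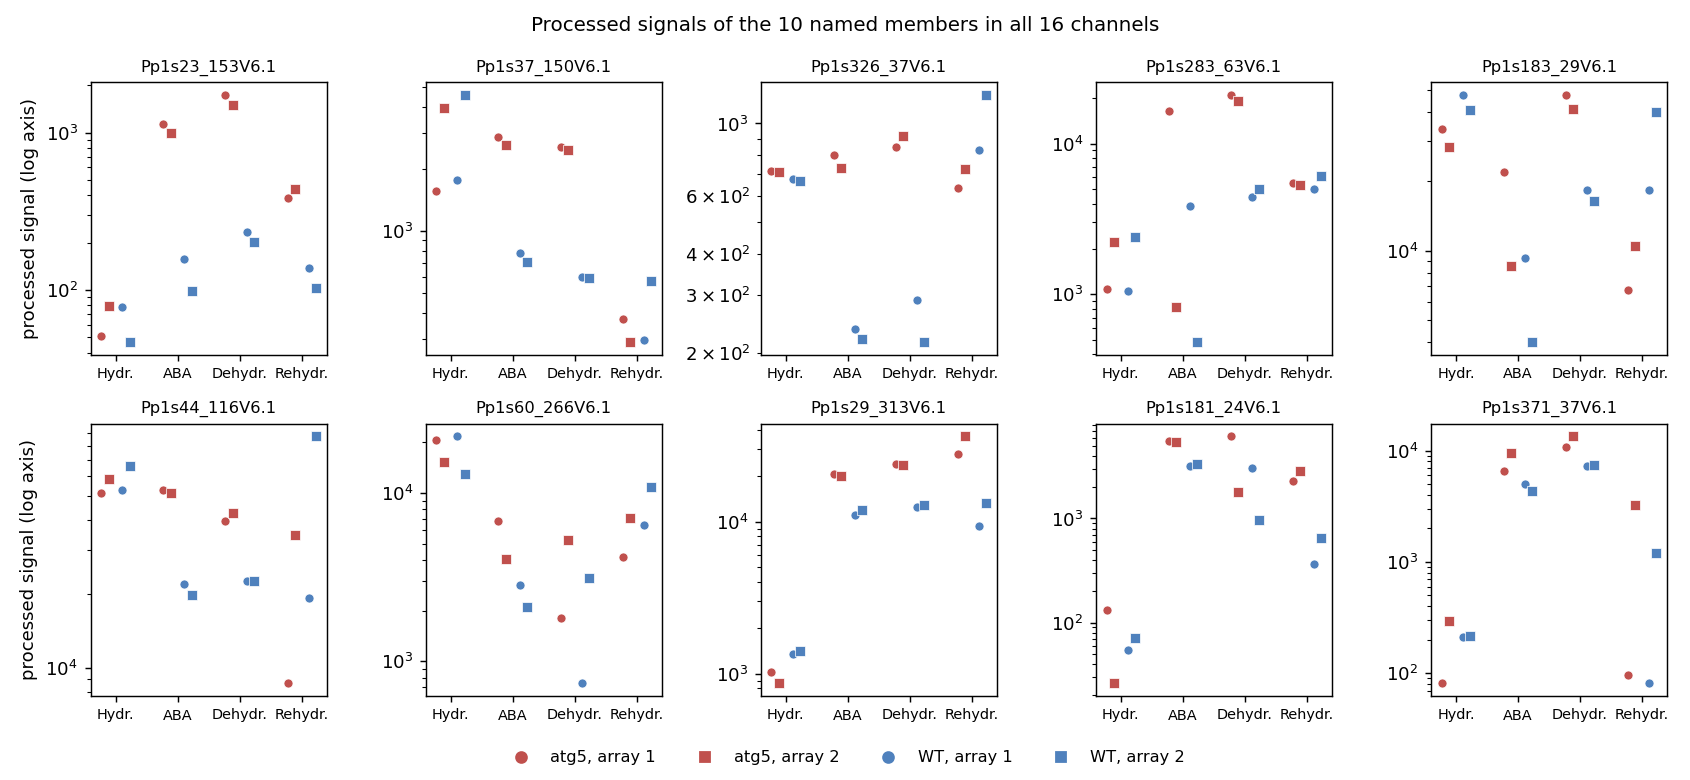
Each panel gives 1 named member, with the processed signal on a log axis against treatment, atg5 in red left of WT in blue, and circles for array 1 and squares for array 2. Pp1s23_153V6.1 lies near background in Hydration, whereas Pp1s326_37V6.1 has about the same atg5 signal in Hydration, ABA and Dehydration and a lower WT signal in the stresses.

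Detection of the members differed between treatments, as it did over all gene probes, of which 37.1% were well above background in all 4 Hydration channels and 16.2% in all 4 Rehydration channels. On ABA and in Dehydration all were measured by construction of the rule. In Hydration 52 were well above background in all 4 channels, 52 in atg5 on both arrays and 58 in WT on both arrays, while 4 were so in no channel. After rehydration 31 were well above background in all 4 channels, 50 in atg5 on both arrays and 33 in WT on both arrays, and 7 in no channel.

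The Hydration criterion rested on means of arrays that often disagreed. The Hydration ratios of 33 members had opposite signs on the 2 arrays, and those of 9 members differed by more than 1. Both arrays lay within the window of -0.5 to 0.3 for 42 members, and 21 met every criterion of the rule on each of the 6 arrays. Of the 15 members not detected in all 4 Hydration channels, 13 had an array outside the window, against 12 of the other 52. The median difference between the arrays was 0.250 in Hydration, 0.241 on ABA, 0.208 in Dehydration and 0.523 after rehydration. Chosen on array 2 alone, the rule found 71 probes, of which 31 were members, and on array 1 alone 72, of which 41 were members. Each of these 2 choices also rests on 1 dye orientation.

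The size of the stress ratios depended on how signals were turned into ratios. After background correction by normexp and loess normalization, the values used for the test below, the median member ratio was 0.66 on ABA (1.59-fold), 0.83 in Dehydration (1.78-fold) and 0.01 in Hydration. Over all tested probes the medians were -0.01, -0.01 and -0.03 in the same order. On this scale 29 members were at or over 0.7 on ABA and 46 in Dehydration. The ratios ran from 0.16 to 1.65 on ABA and from 0.37 to 2.06 in Dehydration, so each member stayed above 0 in both. The same rule applied to these ratios found 39 probes, 25 of them members.

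Some loci were measured by several probes. Of the 59 loci, 6 had more than 1 member probe, 14 members in all, which are not independent measurements. Within these loci the member ratios differed by at most 0.187 on ABA or in Dehydration, where the rule required each of them to be at or over 0.7, and by at most 0.30 after rehydration. One locus held 4 members, with ratios of 0.72 to 0.91 on ABA, 0.70 to 0.79 in Dehydration and 0.46 to 0.55 after rehydration. The member loci had 86 probes on the array, and 7 of their 19 probes outside the rule were detected on all stress arrays. All 7, of 5 loci, had stress ratios above 0, of 0.50 to 1.59 on ABA and 0.65 to 1.42 in Dehydration, and 3 of them passed both stress thresholds. Their Hydration ratios ran from -0.32 to 0.73, past the upper limit of the rule.

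A higher ratio of atg5 over WT can come with a higher level in atg5, a lower level in WT, or both, and the members included each layout. Levels here are log2 values of single channels after normalization between arrays, compared with Hydration, and they are given without a test because the same channels chose the members. On ABA 22 members were above their Hydration level in both genotypes, 21 were below it in both, and 24 were above it in atg5 and below it in WT. None had the reverse layout (0 members), which the ratio limits of the rule all but exclude. In Dehydration these counts were 27, 17, 23 and 0. With processed signals they were 23, 27, 17 and 0 on ABA and 29, 18, 20 and 0 in Dehydration. No shares of these layouts over all kept probes are given here. The median change on ABA was 0.24 in atg5 and -0.30 in WT, against -0.03 and -0.06 over all kept probes. With processed signals it was 0.25 in atg5 and -0.58 in WT, against -0.21 and -0.17 over all kept probes. In Dehydration the median change was 0.46 in atg5 and -0.20 in WT, against 0.00 and -0.04 over all kept probes. With processed signals it was 0.65 in atg5 and -0.20 in WT there, against -0.12 and -0.09.

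Changes of at least 2-fold were counted in each genotype separately. On ABA, 15 members in atg5 and 7 in WT were at least 2-fold above Hydration, where 6.48% and 5.61% of all kept probes were. At least 2-fold below Hydration on ABA were 5 members in atg5 and 15 in WT, and 6.09% and 5.78% of all kept probes. In Dehydration 22 members in atg5 and 9 in WT were at least 2-fold higher (7.48% and 5.96% of all), and 2 in atg5 and 13 in WT at least 2-fold lower (7.11% and 6.54%). With processed signals the counts on ABA were 24 in atg5 and 15 in WT higher, with 14.7% and 13.9% of all, and 8 in atg5 and 27 in WT lower, with 21.7% and 20.4% of all. In Dehydration they were 27 in atg5 and 15 in WT higher (17.3% and 15.5% of all), and 1 in atg5 and 23 in WT lower (22.4% and 20.6%). Since the rule fixes that atg5 exceeds WT in both stresses, nothing is read from the difference between the genotypes in these counts.

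**Figure D3:**
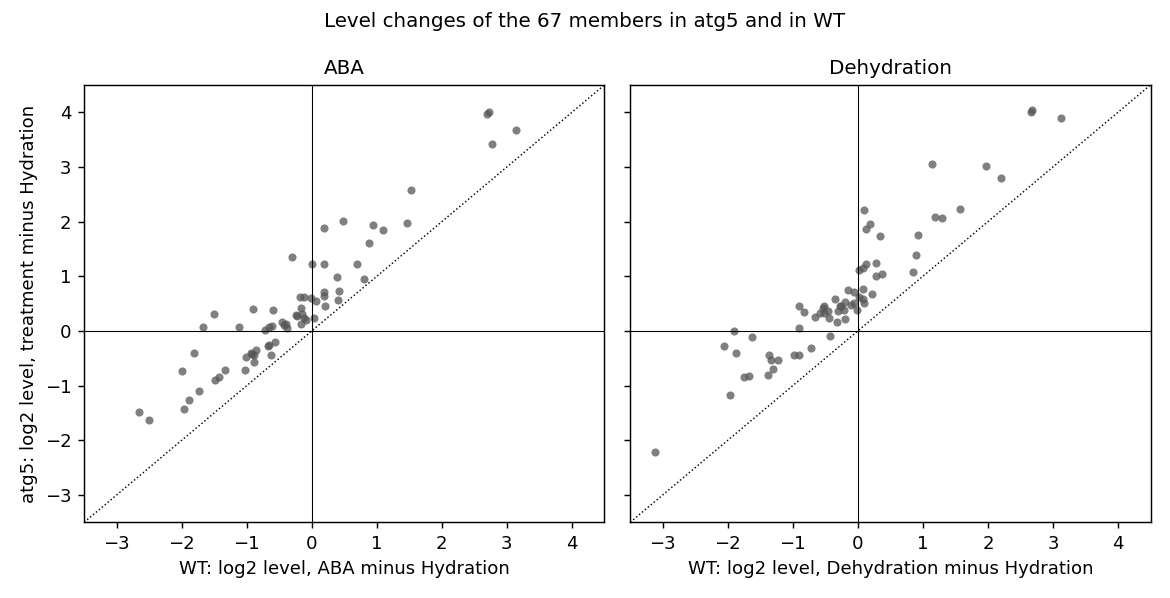
Each point is 1 of the 67 members, with the log2 level change from Hydration in WT on the horizontal axis and in atg5 on the vertical axis, on ABA (left) and in Dehydration (right), and the dotted line marks equal change. The members spread from clear falls to clear rises in both genotypes, and on ABA 24 of them lie above 0 in atg5 and below 0 in WT.

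Of the members well above background in WT on all Hydration and ABA arrays, Pp1s371_37V6.1 and Pp1s29_313V6.1 had the largest rises on ABA in WT. Pp1s29_313V6.1 had processed signals of 20430 and 20024 in atg5 and 11001 and 11974 in WT on ABA. In Hydration it had 1024 and 862 in atg5 and 1339.8 and 1407 in WT. Its log2 level thereby changed by 4.00 in atg5 and 2.72 in WT, and the genotypes changed order between the treatments. Its Hydration ratio of -0.49 is the lowest among the members.

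Pp1s371_37V6.1 had processed signals of 6621 and 9528 in atg5 and 4991 and 4335 in WT on ABA. In Hydration these were 81.9 and 297 in atg5, not well above background on either array, and 211 and 218 in WT. Its log2 level changed by 3.41 in atg5, where the Hydration reading is near background, and by 2.77 in WT. The atg5 signals of the Hydration arrays lay on either side of those of WT, with ratios of -1.34 and 0.54.

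The largest falls on ABA in WT were those of Pp1s183_29V6.1 and Pp1s60_266V6.1, which fell in atg5 as well. Pp1s183_29V6.1 had processed signals of 21938 and 8604 in atg5 and 9253 and 4008 in WT on ABA. In Hydration it had 33734 and 28297 in atg5 and 47234 and 40922 in WT. The log2 level change was -1.48 in atg5 and -2.66 in WT. Pp1s60_266V6.1 had 6801 and 4041 in atg5 and 2824 and 2112 in WT on ABA. In Hydration it had 20613 and 15300 in atg5 and 21786 and 12903 in WT. Its log2 level change was -1.64 in atg5 and -2.50 in WT, from Hydration array 1 alone because its spot on array 2 was left out, so for this pair of probes the higher ratio on ABA went with a smaller drop in atg5 than in WT.

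The rule's thresholds did not use the Rehydration ratios, though detection on those arrays helped to choose the probes for centring. In Rehydration members were called in both directions, with the lower calls near the share over all tested probes. Of the 67, 14 (13 loci) were higher in atg5 and 6 (6 loci) lower, by limma's moderated test with a Benjamini-Hochberg adjusted p under 0.05 over all 19732 tested probes, and 47 did not pass. The 14 are 20.9% of the members, where 7.07% of all tested probes, which include dimmer ones than the rule allows, were called higher. Among those measured in all 4 Rehydration channels these shares were 25.8% and 16.1%. The 6 are 8.96%, near the 7.4% of all tested probes called lower. The median member log2 difference was 0.17, against 0.01 over all tested probes, and with processed signals it was 0.60 against -0.02. The called rises were 0.36 to 1.33 (median 0.75), 4 of them at least 2-fold, and the called falls -1.28 to -0.41 (median -0.60), 1 of them at least 2-fold. No shares of all tested probes at the 2-fold limit are given here, so these 2-fold counts are a description only.

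These counts changed with the normalization and with the arrays. With Agilent's processed signals 20 members were higher, 13 of the 14 among them, and 2 lower, both among the 6, where 10.8% and 9.46% of all tested probes were called (20.3% in either direction). With the replicate number as a block 21 were higher and 6 lower, where 11% and 11.2% of all tested probes were called. Without Rehydration replicate 1 the test called 10 higher and 3 lower, and without replicate 2 it called 8 higher and 2 lower. The share of all tested probes called in either direction was 8.53% and 5.71% in these fits, against 14.5% with both arrays. In either fit the remaining Rehydration array is assumed to vary like those of the other treatments. It also has 1 dye orientation only, so a dye effect of a probe is not balanced there. When loess was replaced by median centring, the test called 0 members and 0% of all probes. At an unadjusted p under 0.05 there were 5 members, against 30 with loess. No share of all tested probes at that unadjusted limit is given here.

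Array by array, 48 of the 66 members measured on Rehydration array 1 and 49 of 67 on array 2 had a loess ratio above 0. On both arrays 40 were above 0 and 10 below, with no share over all tested probes given here. Of the 14 called higher, 13 had the same sign on both arrays and 1 was measured on array 2 only, because its other spot carried an outlier mark and was left out of the fit. All 14 were well above background in atg5 on both arrays. In WT 6 of them were not so on at least 1 array, and 3 of these on neither array. The counts thus include probes read near background in WT. Among the 31 members measured in all 4 Rehydration channels, 8 (25.8%) were higher and 6 (19.4%) lower, against 16.1% and 19.3% of all probes measured in this way, and the median was 0.17.

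**Figure D4:**
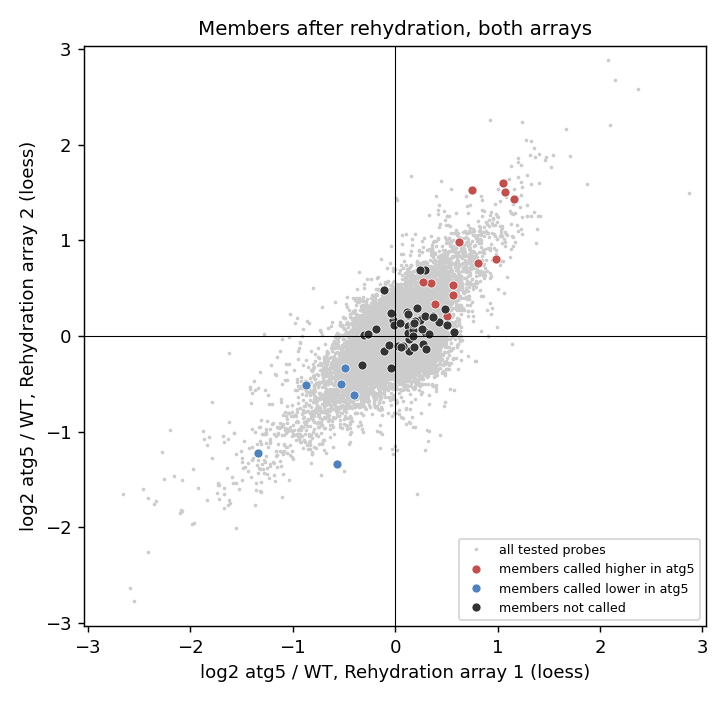
The axes give the log2 ratio of atg5 over WT after loess on Rehydration array 1 (horizontal) and array 2 (vertical), for the members called higher in atg5 (red), called lower (blue) and not called (black), over all tested probes (grey). 40 members lie above 0 on both arrays and 10 below 0 on both; the called member without an array 1 value is not drawn.

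The largest called rises were those of Pp1s181_24V6.1 and Pp1s29_313V6.1. After rehydration Pp1s181_24V6.1 had processed signals of 2305 and 2834 in atg5 and 365 and 648 in WT. Its atg5 level was 2.46-fold that of WT (log2 difference 1.30 ± 0.106 SE, n = 2 arrays, limma adjusted p = 3.4e-05). On the rule's scale its difference was larger, at 2.41, and with processed signals it passed at a limma adjusted p of 0.034. The call was lost when arrays were only median-centred, at a log2 difference of 1.69 ± 0.567 SE. In Hydration its signals were 132 and 26.0 in atg5 and 54.0 and 71.0 in WT. These were well above background on 1 array in atg5 and on none in WT, and the ratios were 1.32 and -1.36.

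Pp1s29_313V6.1 had processed signals of 27953 and 36572 in atg5 and 9339 and 13162 in WT after rehydration, and its atg5 signals were above those on ABA. Its atg5 level was 2.44-fold that of WT (log2 difference 1.29 ± 0.109 SE, n = 2 arrays, limma adjusted p = 4.1e-05). A second probe of this locus, Pp1s29_313V6.2, had the largest value among all members, 1.33. It is named here after its values were seen. Both genotypes stood far above their Hydration signals, and atg5 lay above WT on both arrays, the reverse of Hydration. The call of Pp1s29_313V6.1 was also lost when arrays were only median-centred, at a log2 difference of 2.19 ± 0.756 SE.

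The largest called falls were those of Pp1s44_116V6.1 and Pp1s183_29V6.1. Pp1s44_116V6.1 had processed signals of 8643 and 34831 in atg5 and 19295 and 87591 in WT after rehydration. The arrays differed several-fold in brightness, yet on each atg5 was below WT, 2.43-fold on average (log2 difference -1.28 ± 0.102 SE, n = 2 arrays, limma adjusted p = 2.9e-05). When arrays were only median-centred its log2 difference shrank to -0.48 ± 0.798 SE and did not pass. On ABA its signals were 52754 and 51379 in atg5 and 21939 and 19833 in WT. In Hydration they were 51229 and 58379 in atg5 and 52946 and 66430 in WT. The WT level was thus lower on ABA than in Hydration, by 1.81 on the log2 scale, whereas the change in atg5 was -0.40 there and 0.11 with processed signals.

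Pp1s183_29V6.1 had processed signals of 6765 and 10508 in atg5 and 18297 and 39890 in WT after rehydration. It was 1.94-fold lower in atg5 (log2 difference -0.95 ± 0.162 SE, n = 2 arrays, limma adjusted p = 0.00275). Without Rehydration replicate 2 the difference was smaller, at -0.57, and rests on 1 Rehydration array, with the spread taken from the other treatments. Over all alternatives the limma adjusted p ran from 2.97e-07 to 1. In Dehydration its signals were 47481 and 41340 in atg5 and 18273 and 16421 in WT. The atg5 signals were above both WT signals after drying and below both after rehydration.

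Of the 4 members named for their stress ratios, 1 was called higher after rehydration and the other 3 did not pass. Pp1s23_153V6.1 had processed signals of 386 and 439 in atg5 and 138 and 103 in WT after rehydration. WT was not well above background on either array, though its readings lay above the dimmest detected WT signal. The bound used for dim probes therefore equals the measured 1.37-fold difference and is not a lower limit apart from it. The measured difference was 0.46 ± 0.103 SE (n = 2 arrays, limma adjusted p = 0.013, and 0.00207 to 1 over all alternatives). Without Rehydration replicate 2 it was smaller, at 0.35, from 1 Rehydration array. With processed signals the log2 difference was larger, at 1.80 ± 0.361 SE, so its size depended on the scale.

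Pp1s37_150V6.1 had processed signals of 374 and 288 in atg5 and 295 and 575 in WT after rehydration, far below its Hydration signals in both genotypes. The groups overlapped, and the log2 difference of -0.19 ± 0.0961 SE did not pass (n = 2 arrays, limma adjusted p = 0.264). Pp1s326_37V6.1 had 635 and 729 in atg5 and 832 and 1223.5 in WT, with a log2 difference of -0.31 ± 0.112 SE (n = 2 arrays, limma adjusted p = 0.10). Among probes detected in all 4 Rehydration channels only, the same difference passed (adjusted p = 0.0389, and 0.0389 to 1 over all alternatives). Pp1s283_63V6.1 had 5463 and 5333 in atg5 and 5009 and 6123 in WT. Its log2 difference of -0.07 ± 0.23 SE did not pass (n = 2 arrays, limma adjusted p = 0.913). Its loess ratios were -0.06 and -0.09 on the Rehydration arrays but 1.95 and 0.59 on those of ABA, which enter the same SE.

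The remaining named members also differed from each other. Pp1s60_266V6.1 had processed signals of 4153 and 7094.5 in atg5 and 6478 and 10897 in WT after rehydration. It was lower in atg5 (log2 difference -0.51 ± 0.117 SE, n = 2 arrays, limma adjusted p = 0.0174). With processed signals the difference was -0.62 ± 0.20 SE and did not pass (adjusted p = 0.0948, and 0.0658 with the block added). It was -0.62 without replicate 1 of Rehydration and -0.40 without replicate 2, each from 1 Rehydration array. Over all alternatives the limma adjusted p ran from 0.00127 to 1. Pp1s371_37V6.1 had 96.1 and 3241 in atg5 and 80.98 and 1192 in WT, and was well above background on 1 of the 2 arrays in each genotype. Its log2 difference was 0.47 ± 0.146 SE (n = 2 arrays, limma adjusted p = 0.0597). It passed with the replicate number as a block (adjusted p = 0.00131, the lowest over all alternatives, which reached 1).

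The level changes on ABA of the members called lower and called higher after rehydration overlapped, and they are given as a description only. Of the 6 called lower, 5 were below Hydration on ABA in each genotype, with log2 level changes of -1.64 to 1.86 in atg5 (median -1.08) and -2.66 to 1.09 in WT (median -1.98). Of the 14 called higher, 4 were below Hydration on ABA in atg5 and 8 in WT, with changes of -1.27 to 4.00 in atg5 (median 0.50) and -1.89 to 3.15 in WT (median -0.07). With processed signals those below Hydration numbered 4 in atg5 and 5 in WT among the 6, and 4 in atg5 and 7 in WT among the 14.

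The other probes raised in both stresses are set beside the members here without a test, since these groups were chosen on the same arrays. Of the 374 probes at or over 0.7 in Hydration as well, 156 (41.7%) were higher in atg5 after rehydration and 2 (0.535%) lower, with a median log2 difference of 0.30. Of the 135 probes with a Hydration ratio between 0.3 and 0.7, 37 (27.4%) were higher and 8 (5.93%) lower, with a median of 0.17. The 67 members had 20.9% higher and 8.96% lower, with the median of 0.17 given above. On the rule's scale the median Rehydration ratio was 0.61 in the members, 0.53 in the 135 probes and 0.89 in the 374. The members and the 135 probes thus had about equal medians after loess, and the members the higher one on the rule's scale. With processed signals the members called were 20 higher and 2 lower, as given above.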

How the data were processed

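RNA of WT and atg5 protonemata was hybridised to 8 2-colour arrays. The deposited scanner output of Agilent Feature Extraction (9.5.3.1 per the file headers, 9.1 per the submitters' processing notes) holds spot intensities on a linear scale: median pixel signals, local background medians, and processed signals, which the software had background-subtracted and dye-normalized. The design foresaw pixel signals as the files give them, which are medians. Ratios for choosing members were log2 of processed signals, averaged over spots of a probe, minus the median over 5475 probes well above background in all 16 channels. For the test, limma 3.58.1 in R 4.3.3 was used on normexp-corrected (offset of 50), loess-normalized log2 ratios. Control spots had weight 0, and outlier-marked spots were left out. Probes had to be well above background in a genotype and treatment on its 2 arrays, which 19739 were, and of these 19732 (15494 loci) could be tested in Rehydration. The fit had 1 coefficient per treatment over all 8 arrays. Single-channel levels were further normalized by Aquantile. Only the limma fit was tested on simulated ratios, which were independent between arrays and had known changes in Rehydration. The rule, the background correction and the normalization were not part of that simulation.

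Members and lists were chosen with earlier results of these data known. Named members are the 2 with the highest mean stress ratio, the next 2 detected in all Hydration channels, the 2 largest called rises and falls in Rehydration with the same sign on both arrays, and the 2 largest rises and falls of WT on ABA, 1 probe per locus. For probes dim in 1 genotype, the dim side was taken as the higher of its reading and the dimmest detected signal. Such a fold can equal the measured one. For each of the 6 pairs of treatments, the deviations from the treatment mean correlated across probes between arrays of the same number (0.271 to 0.534). Such arrays also share the slide and the dye orientation, so pairing of the samples, slide and dye cannot be told apart here. The block for replicate number is equally a block for slide and dye. The replicate block and other alternatives are given in the closing section. Sequences and gene names were not used here.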

Additional observations from a re-analysis of the deposited data

Results flagged for a closer look

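Several members lay above 0 on all 4 ABA and Dehydration arrays and below 0 on both Rehydration arrays after loess, 10 in all. The stress side of this pattern is fixed by the choice of members, and the difference between treatments was not tested. The share of all tested probes below 0 on both Rehydration arrays is not given here, so the count is not read as a trait of the members. Among the named members these were Pp1s44_116V6.1 with a log2 difference of -1.28 in Rehydration, Pp1s183_29V6.1 with -0.95 and Pp1s60_266V6.1 with -0.51, which passed the Rehydration test. Pp1s326_37V6.1 with -0.31, Pp1s37_150V6.1 with -0.19 and Pp1s283_63V6.1 with -0.07 did not pass it.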

How the results depend on the processing

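The 20 members called in Rehydration (14 higher, 6 lower) became 0 with median centring, 11 (8 higher, 3 lower) when at least 1.5-fold was also required, and 10 to 13 without 1 Rehydration array. For the 1.5-fold limit no share over all tested probes is given here. The cause of the loss with median centring was not tested. Over all tested probes 0% were called with median centring, 8.53% without replicate 1 and 5.71% without replicate 2, against 14.5%. Of the 67 members 20 were called without background correction (14.9% of all probes), 20 with outlier-marked spots (14.4%), 17 without a filter (5.37%) and 23 with the Rehydration arrays alone (14.3%). Of the 31 members detected in all 4 Rehydration channels 20 were called in a fit of such probes (47.3% of all) and 14 in the fit of all kept probes, and with 1 probe per locus 19 of 59, the last 2 chosen after seeing the data. With the replicate block it was 27 (21 higher, 6 lower, all 14 and 6 among them), where 11% and 11.2% of all tested probes were called, and 28 (24 higher, 4 lower, with 26% of all probes called) with the block and processed signals, an alternative added after seeing the data. The block changed the call of 1 named member, Pp1s371_37V6.1. The median member difference in Rehydration was 0.60 with processed signals and 0.29 with median centring, against 0.17, and the medians over all tested probes were -0.02 and 0.08. The rule gave 26 members with a ratio of at least 1 and 39 with normexp and loess ratios. Without replicate 1 it gave 71 and without replicate 2 72, 76 with centring on all gene probes (40 of them members), 73 without centring (60), 52 with detection in Hydration and 64 without outlier-marked spots. The value of Pp1s283_63V6.1 turned to 0.58 with median centring (SE 0.82), where the cause was not tested. Of 107 values of named members under alternatives, 91 kept direction and call, 12 lost the call, 3 gained it and 1 turned. Of the members, 52 in Hydration and 31 in Rehydration were well above background in all 4 channels.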
